A study of Mus musculus with 12 samples.

Results

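The genes described here encode the proteins of the cytosolic ribosome, the particle that translates messenger RNA in every cell. They were taken by name, as the genes of the large subunit (Rpl), the small subunit (Rps) and the stalk (Rplp), without the S6 kinases (Rps6k) and without entries named as pseudogenes, and with at least 10 counts in 3 or more of 12 libraries. Of the 20347 gene entries counted, 84 bore such a name and 81 also had the counts. The other 3 were Rpl10l with 0 counts in all 12 libraries together, Rpl39l with 14 and Rps23rg1 with 28. Rpl3l and Rpl39 had the lowest counts of the members, down to 7 in a library each, but at least 10 in 10 of the 12 libraries. The 81 members comprise 49 Rpl genes (the 3 stalk genes among them), 31 Rps genes and Rps19bp1, which the name rule also takes although it encodes a protein that binds Rps19 and is no part of the ribosome. The ribosomal genes Rpsa, Fau and Rack1 fall outside the name rule and are given apart. The names Rpl36al and Rps4l were not among the 84, so these genes were not analysed here.

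The libraries are bulk RNA-seq of brain hemispheres of male mice, all 12 weeks old, in 4 groups of 3. Wild-type (WT) mice and Lama4-/- mice, which lack the laminin alpha 4 chain of the basement membrane around blood vessels, both underwent closure of the left middle cerebral artery with a filament for 60 min and restored blood flow for 24 h. The hemisphere on the side of the occlusion (ipsilateral) is the stroke sample, and the opposite hemisphere (contralateral) of operated mice, not of mice without surgery, is the control. The mice were perfused with PBS, the cerebellum and olfactory bulb were taken off, whole hemispheres were homogenized, and steps to remove blood and its immune cells followed. For each library 2 mice were pooled, so p-values measure the spread between 3 pools per group. The deletion is not said to be limited to a cell type, and the study asked what this laminin does at brain vessels and in stroke, not about ribosomes.

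A cytosolic ribosome holds 1 copy of most of these proteins together with ribosomal RNA, so cells make the proteins in nearly equal numbers and coordinate their genes. The mRNAs of ribosomal proteins and of several translation factors start with a C followed by a run of pyrimidines, the 5' terminal oligopyrimidine (TOP) tract, through which the mTOR kinase and Larp1 control their translation. Brain tissue after ischaemia is known to shut down protein synthesis, with recovery in cells that survive, while glia become reactive and leukocytes enter. In a bulk hemisphere, fewer cells of a type and less RNA per cell cannot be told apart.

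Total counts ran from 27537167 to 44113824 per library. Lama4 had 198 to 601 counts in the 6 WT libraries and 6 to 33 in the 6 Lama4-/- libraries, as the labels say. Markers of the labelled tissue were present in all libraries: the 5 neuron markers summed to 4284 to 5449 CPM (counts scaled to a common library total) and the 5 oligodendrocyte markers to 3746 to 5772 CPM. A few libraries stood apart in the ribosomal protein genes as a whole. Of the 81 members, 76 had their lowest CPM of all 12 libraries in WT contralateral replicate 1, and 71 had their highest in Lama4-/- ipsilateral replicate 1. Among the 6 contralateral libraries, Lama4-/- replicate 2 was highest for 77 members. The members thus moved together from library to library, and counts of members are not counts of independent genes.

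Together the members held between 0.678% and 1.09% of all counts. In WT contralateral hemispheres the share was 0.678%, 0.770% and 0.760% in replicates 1 to 3, and in WT ipsilateral hemispheres 0.865%, 0.956% and 0.947%. In Lama4-/- contralateral hemispheres it was 0.784%, 0.969% and 0.784%, and in Lama4-/- ipsilateral hemispheres 1.09%, 0.999% and 0.913%. The WT groups did not overlap, whereas Lama4-/- contralateral replicate 2 lay above Lama4-/- ipsilateral replicate 3. The exact (Clopper-Pearson) 95% interval of the lowest share was 0.675% to 0.681% and that of the highest 1.086% to 1.092%. These intervals cover counting error only and are far narrower than the spread between replicates. Whether molecular identifiers were used is not known here, and without them reads need not be independent molecules.

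**Figure D1:**
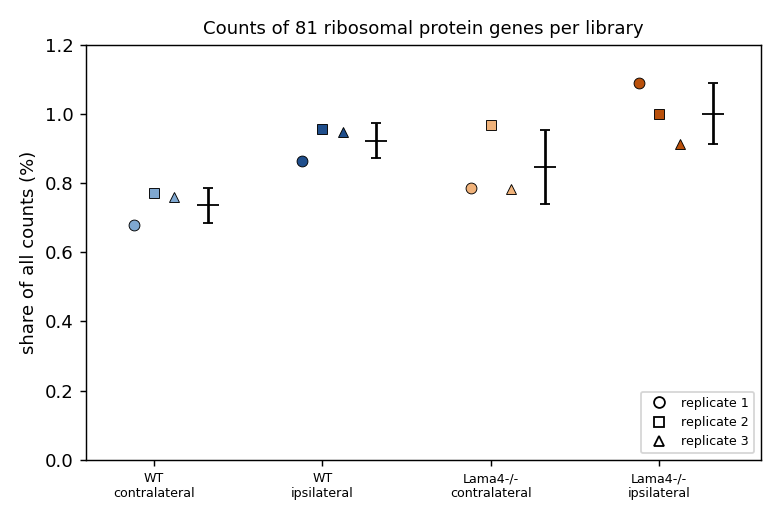
Share of all counts (%, vertical axis) held by the 81 ribosomal protein genes in each library, by group. Points are libraries with their replicate number as shape, and bars are the mean ± SD of 3 libraries. The WT ipsilateral libraries (0.865% to 0.956%) lie above the WT contralateral ones (0.678% to 0.770%), and Lama4-/- contralateral replicate 2 (0.969%) lies within the range of its ipsilateral group.

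Levels of different members were compared per kilobase of the annotated principal transcript, which 80 members had. Rplp1, a protein of the ribosomal stalk, was highest with a mean over the 4 groups of 539 CPM per kb, followed by Rps15 (473), Rps21 (414), Rpl8 (284) and Rpl9 (281). The median member had 108 CPM per kb and the middle of the distribution ran from 67.8 to 156. Lowest were Rpl3l at 0.316 CPM per kb, known as the paralog of Rpl3 in heart and skeletal muscle, and Rpl39 at 0.688, which encodes one of the smallest ribosomal proteins. Then came Rpl7l1 (18.2), Rps20 (20.1) and Rps19bp1 (21.0). These levels carry a wide uncertainty, and why so few reads were counted for Rpl39 was not tested. Many pseudogenes copy these mRNAs, so that the median member shares 43.5% of the 50-base windows of its transcript with another annotated gene, and 32 of the 80 share at least 50% of them. How the authors counted reads that match several genes is not known here, and its effect on these levels was not tested. The kit in the labels is one for the 3' ends of single cells, which does not match bulk columns, so it is not clear that reads cover transcripts along their length.

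After stroke the ribosomal protein genes of WT hemispheres were mostly higher. The log2 fold change, ipsilateral over contralateral, was above 0 for 80 of the 81 members, against 51.2% of all 15351 genes tested, and its median was 0.25 for the members (1.19-fold) and 0.01 for all genes. By edgeR's quasi-likelihood test with Benjamini-Hochberg adjustment over all genes and an adjusted p under 0.05, 24 members (29.6%) were called higher and 0 lower. Among all genes 9.91% were called higher and 5.47% lower. The 3 ipsilateral libraries lay wholly above the 3 contralateral ones for 73 members, against 29.9% of all genes, and 59 members had an unadjusted p under 0.05, against 29.5%. Of the small subunit genes 13 of 31 were called, of the large subunit genes 10 of 49, and of the 3 stalk genes 2.

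Hemispheres with the same number were taken to come from the same pool of mice, a pairing that the fit above did not use. With the pool as a block 49 members were called, when 13.2% of all genes were called higher. The count depended on single libraries. Among WT contralateral libraries, leaving out replicate 1 gave 9 calls (with 7.60% of all genes called higher), replicate 2 gave 15 (6.99%) and replicate 3 gave 11 (6.27%). Among WT ipsilateral ones, leaving out replicate 2 gave 10 (6.94% of all genes) and replicate 3 gave 9 (7.87%). Without Lama4-/- contralateral replicate 2, which is in neither of the groups compared, it was 44 (10.3% of all genes). The median log2 fold change stayed between 0.19 and 0.30 in these fits.

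Within single pools the rise was seen in each of the 3 WT pools. The median change of the members in log2 CPM, ipsilateral minus contralateral, was 0.35 in WT pool 1, 0.29 in WT pool 2 and 0.32 in WT pool 3, and 80, 79 and 80 members were higher, against 63.7%, 60.8% and 64.4% of all genes. In the Lama4-/- pools the medians were 0.47, 0.03 and 0.20, with 80, 46 and 80 members higher, against 60.9%, 59.2% and 62.6% of all genes. The share of members higher in Lama4-/- pool 2 (56.8%) was near that background. Over all genes the medians of the 6 pools lay between 0.065 and 0.083, so the median of the members lay below that of all genes in Lama4-/- pool 2 and above it in the other 5 pools. That pool holds the contralateral library with the high ribosomal share. In total 79 members were higher in all 3 WT pools, against 43.3% of all genes, and 46 in all 6 pools, against 29.4%.

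**Figure D2:**
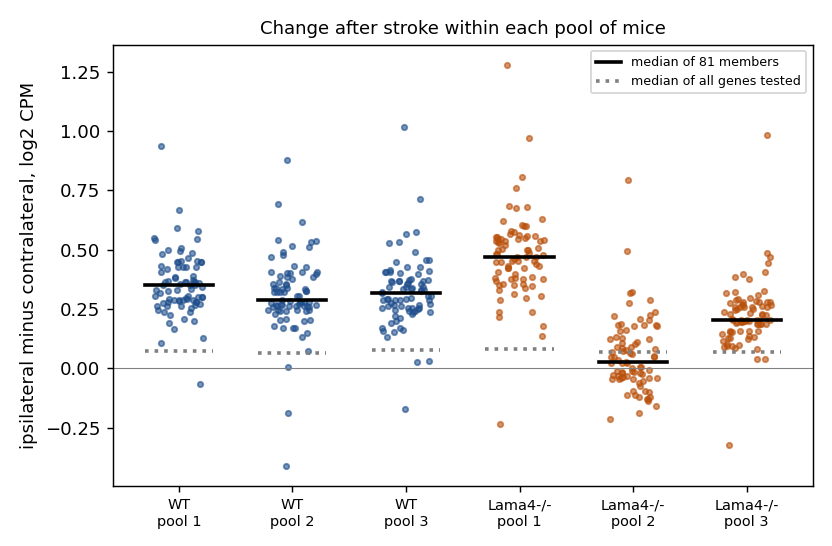
Change of each of the 81 ribosomal protein genes within each pool of 2 mice (log2 CPM, ipsilateral minus contralateral, vertical axis). Points are genes, black lines the median of the members and dotted lines the median of all genes tested; the horizontal scatter has no meaning. The member medians lie between 0.20 and 0.47 except in Lama4-/- pool 2 (0.03), and the highest point of every pool is Rps27l.

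Rps27l rose most of all members in both genotypes. It encodes a near-copy of the small subunit protein Rps27, and its human counterpart is known as a target gene of the tumour suppressor p53. Its level was 9.58, 10.3 and 9.82 CPM in WT contralateral replicates 1 to 3 and 18.8, 19.4 and 20.4 CPM in WT ipsilateral ones. In Lama4-/- mice it was 10.3, 11.6 and 9.35 CPM contralaterally and 25.8, 20.6 and 19.0 CPM ipsilaterally. In both genotypes every ipsilateral library lay above every contralateral one, and Rps27l was the member with the largest change in each of the 6 pools. The log2 fold change was 0.91 ± 0.11 (SE, 1.88-fold, edgeR adjusted p = 0.000143) in WT and 0.97 ± 0.11 (1.96-fold, adjusted p = 5.47e-05) in Lama4-/- hemispheres. It was called in all 21 alternative fits of both comparisons, with log2 fold changes from 0.84 to 1.06. The parent gene Rps27 was at 72.6 to 88.2 CPM in WT ipsilateral and 63.1 to 77.1 CPM in WT contralateral libraries, which overlap, with log2 fold changes of 0.14 ± 0.11 in WT and 0.07 ± 0.11 in Lama4-/- hemispheres (edgeR adjusted p = 0.464 and 0.706). Of the windows of Rps27 98.6% occur elsewhere in the annotation, against 22.4% of those of Rps27l, so the counts of Rps27 are the less certain.

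Because Rps27l stands out, its start region is shown from RefSeq sequence of build GRCm38.p6, plus strand. Capitals in the first sequence mark the TOP-like run next to the annotated start, which is base 31, and capitals in the second mark matches to the p53 response element decamer within the gene's second promoter window, upstream of an internal start.
Rps27l start, chr9:66946056-66946100: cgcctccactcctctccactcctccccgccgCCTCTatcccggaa
Rps27l p53 decamers, chr9:66946196-66946325: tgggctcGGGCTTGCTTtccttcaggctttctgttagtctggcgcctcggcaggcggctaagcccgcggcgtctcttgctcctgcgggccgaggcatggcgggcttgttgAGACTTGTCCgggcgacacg
The decamer reads alike on both strands. Its 2 matches are separated by 93 bases. At least 2 matches, at any distance from each other, were found in 0.359% of the 32851 promoter windows in the table and in 1 of the 72 windows of members. The spacing of the matches was not part of this count, so it is not a count of complete response elements. At least 1 match was in 8.36% of all windows and 11.1% of those of members. A match of letters is a description and does not show that p53 binds there.

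The stalk of the large subunit, built of Rplp0 at its base and dimers of Rplp1 and Rplp2, recruits the factors that drive elongation. Rplp0 showed the second largest rise of the called members. It was at 114, 127 and 118 CPM in WT contralateral and 181, 205 and 194 CPM in WT ipsilateral libraries. In Lama4-/- mice it was at 123, 159 and 129.9 CPM contralaterally and 242, 224 and 182 CPM ipsilaterally. The hemispheres did not overlap in either genotype, and Lama4-/- contralateral replicate 2 was again the highest contralateral library. The log2 fold change was 0.62 ± 0.11 (1.54-fold, edgeR adjusted p = 0.00159) in WT and 0.57 ± 0.11 (1.48-fold, adjusted p = 0.00209) in Lama4-/- hemispheres, and both calls held in all 21 alternative fits. Rplp2 rose in WT by a log2 fold change of 0.37 ± 0.10 (edgeR adjusted p = 0.0250), a call lost in 3 of the 12 fits without 1 library, and had 0.26 ± 0.10 in Lama4-/- hemispheres (adjusted p = 0.0833, and 0.0161 with pools as blocks). Rplp1 was not called in either, with 0.24 ± 0.10 and 0.06 ± 0.10 (edgeR adjusted p = 0.111 and 0.693), but was called in WT with the block (adjusted p = 0.0272). The stalk genes thus had unequal estimates in the same libraries, although the difference between them was not tested.

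In the small subunit, Rps2, which sits near the entry of the mRNA channel, was at 124, 148 and 141 CPM in WT contralateral and 182, 215 and 210 CPM in WT ipsilateral libraries. Its levels in Lama4-/- libraries were 144, 181 and 157 CPM contralaterally and 230.1, 226 and 191 CPM ipsilaterally. The hemispheres did not overlap in either genotype, and the log2 fold changes were 0.48 ± 0.10 in WT and 0.34 ± 0.10 in Lama4-/- hemispheres (edgeR adjusted p = 0.00563 and 0.0261), the second call being lost in 4 of the 12 fits without 1 library. Rps18, a protein of the head of the subunit, was at 47.4, 54.8 and 54.3 CPM in WT contralateral and 71.1, 78.5 and 78.5 CPM in WT ipsilateral libraries. In Lama4-/- libraries it was at 54.6, 67.8 and 53.1 CPM and at 96.0, 78.1 and 73.7 CPM, again without overlap. Its log2 fold changes were 0.47 ± 0.11 and 0.41 ± 0.11 (edgeR adjusted p = 0.00969 and 0.0139), and the second call was lost in 3 of those 12 fits. Rps19, whose human counterpart is mutated in Diamond-Blackfan anaemia, rose in WT from 48.3, 56.4 and 55.4 to 73.1, 78.2 and 76.3 CPM, a log2 fold change of 0.44 ± 0.10 (edgeR adjusted p = 0.00890). In Lama4-/- mice Rps19 was at 60.8, 74.3 and 60.9 CPM contralaterally and 92.9, 84.2 and 72.2 CPM ipsilaterally, which overlap, and it was not called (0.26 ± 0.10, adjusted p = 0.0707) except with pools as blocks (adjusted p = 0.0285).

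Rps12, a small subunit protein known in flies for a part in cell competition, rose in both genotypes by 0.38 ± 0.10 and 0.36 ± 0.10 (edgeR adjusted p = 0.0238 and 0.0230). Both calls were lost in 4 of the 12 fits without 1 library, with adjusted p up to 0.09 in WT and 0.11 in Lama4-/- hemispheres. Rps15a rose in both genotypes by a smaller amount, 0.25 ± 0.06 in each (edgeR adjusted p = 0.0178 and 0.0129). Rps6, the small subunit protein that the S6 kinases phosphorylate, had nearly equal estimates of 0.25 ± 0.09 and 0.26 ± 0.09. It was called in Lama4-/- and not in WT hemispheres (edgeR adjusted p = 0.0478 and 0.0720), and the first call was lost in 8 of the 12 fits without 1 library. With the pool as a block Rps6 was called in WT too (edgeR adjusted p = 0.0221). Rps3, which lines the mRNA entry and also takes part in DNA repair, was not called (0.28 ± 0.09 and 0.18 ± 0.09, edgeR adjusted p = 0.0633 and 0.197), but was called in WT with the block (adjusted p = 0.0290). Rps19bp1 was called higher in WT alone (0.30 ± 0.10, edgeR adjusted p = 0.0481), a call lost in 8 of the 12 fits without 1 library and with the block (adjusted p = 0.0518).

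In the large subunit, Rpl18 was at 48.5, 53.02 and 53.7 CPM in WT contralateral and 70.8, 81.6 and 78.1 CPM in WT ipsilateral libraries, a rise of 0.50 ± 0.12 (edgeR adjusted p = 0.0109). In Lama4-/- libraries it was at 52.5, 74.3 and 57.2 CPM and at 89.3, 84.5 and 71.4 CPM, so that 1 contralateral library lay inside the ipsilateral range, and it missed the threshold (0.33 ± 0.12, adjusted p = 0.0562), which it passed with pools as blocks (adjusted p = 0.0212). Rpl28 rose in WT from 58.2, 65.9 and 67.7 to 82.4, 95.5 and 93.0 CPM, by 0.43 ± 0.09 (edgeR adjusted p = 0.00529). In Lama4-/- hemispheres it rose by 0.26 ± 0.09 (edgeR adjusted p = 0.0491), a call lost in 7 of the 12 fits without 1 library. Rpl23 rose by 0.27 ± 0.09 and 0.25 ± 0.09 (edgeR adjusted p = 0.0439 and 0.0453), close to the threshold in both, and these calls were lost in 6 and 7 of the 12 fits without 1 library. Rpl8 and Rpl10a were called in WT, at 0.31 ± 0.10 and 0.38 ± 0.12 (edgeR adjusted p = 0.0446 and 0.0420), and not in Lama4-/- hemispheres, at 0.18 ± 0.10 and 0.15 ± 0.12 (adjusted p = 0.213 and 0.378). The WT calls of Rpl8 and Rpl10a were lost in 7 and 5 of those 12 fits. Rpl5 and Rpl11, which with the 5S ribosomal RNA bind and inhibit Mdm2 when ribosome assembly fails, were not called: Rpl5 had 0.20 ± 0.09 and 0.22 ± 0.09 (edgeR adjusted p = 0.170 and 0.101) and Rpl11 had 0.26 ± 0.10 in WT. Rpl13a, known for silencing inflammatory mRNAs after its release from the ribosome, was not called either (0.24 ± 0.10 and 0.09 ± 0.10), nor was the abundant Rpl4 (0.26 ± 0.09 and 0.19 ± 0.09). With the pool as a block Rpl11, Rpl13a and Rpl4 were called in WT (edgeR adjusted p = 0.0309, 0.0363 and 0.0371).

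**Figure D3:**
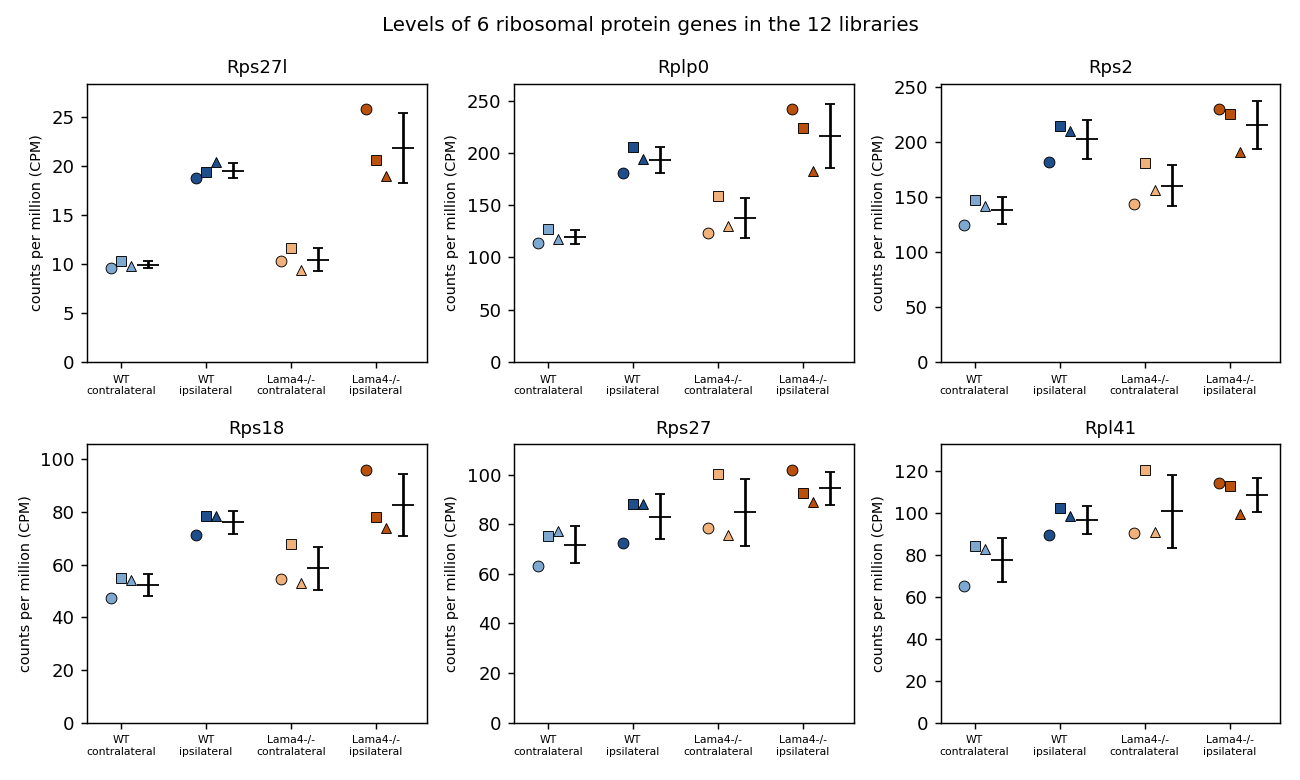
Levels in CPM (vertical axes, each from 0) of Rps27l, Rplp0, Rps2, Rps18, Rps27 and Rpl41 in the 12 libraries by group. Points are libraries (circle, square and triangle are replicates 1 to 3) and bars the mean ± SD of 3 libraries. Rps27l, Rplp0, Rps2 and Rps18 show no overlap between hemispheres of a genotype, whereas Rps27 and Rpl41 in Lama4-/- contralateral replicate 2 reach their ipsilateral range.

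Several members have a paralog or a related gene, some of them of known tissue bias, and the estimates differed in some pairs. Rpl22, an RNA-binding large subunit protein, was at 81.1, 90.9 and 89.5 CPM in WT contralateral and 105, 109.7 and 109.9 CPM in WT ipsilateral libraries, without overlap. In Lama4-/- libraries Rpl22 was at 92.7, 102 and 84.6 CPM and at 135, 119 and 112 CPM. It was called in Lama4-/- hemispheres (0.30 ± 0.08, edgeR adjusted p = 0.0131) and just missed the threshold in WT (0.24 ± 0.08, adjusted p = 0.0537). The first call was lost in 2 of the 12 fits without 1 library, and with the pool as a block Rpl22 was called in WT as well (edgeR adjusted p = 0.0213). Its paralog Rpl22l1 had 0.08 ± 0.09 and -0.02 ± 0.09 (edgeR adjusted p = 0.583 and 0.884). Rpl7l1, which is related to Rpl7, rose in both genotypes by 0.29 ± 0.07 and 0.28 ± 0.07 (edgeR adjusted p = 0.0127 and 0.00891; the WT call was lost in 2 of the 12 fits without 1 library), whereas Rpl7 itself was not called (0.21 ± 0.09 and 0.15 ± 0.09). Rpl3 was among the lowest estimates of all members, with 0.06 ± 0.09 and -0.02 ± 0.09 at a level of 263 to 363 CPM, and its paralog Rpl3l was too low to judge (0.20 to 0.65 CPM). Rpl39 had the lowest estimates, -0.55 ± 0.42 and -0.66 ± 0.41, from 7 to 33 counts per library, and was not called (edgeR adjusted p = 0.422 and 0.272). Rpl10, Rps4x and Rpl36a, which have paralogs as well, were not called, with 0.25 ± 0.09, 0.26 ± 0.10 and 0.20 ± 0.09 in WT. With the block Rpl10 was called in both genotypes (edgeR adjusted p = 0.0413 and 0.0356) and Rps4x in WT (adjusted p = 0.0241).

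In Lama4-/- hemispheres the same comparison called 12 members higher (14.8%) and 0 lower, against 12.8% of all genes higher and 10.5% lower. In that fit the share is near the background and is not a result about the ribosomal protein genes. The log2 fold change was above 0 for 75 members, against 48.8% of all genes, with a median of 0.15 against -0.01. The hemispheres did not overlap for 19 members, against 25.9% of all genes, and 27 members had an unadjusted p under 0.05, against 36%. With the pool as a block 22 members were called, when 16.2% of all genes were called higher. Without Lama4-/- contralateral replicate 2 the count was 40 (10.5% of all genes called higher) and the median 0.27, the highest of these fits. The count was 5 without Lama4-/- contralateral replicate 1 (12.6% of all genes) and 3 without contralateral replicate 3 (10.1%). It was 3 without Lama4-/- ipsilateral replicate 1 (9.10% of all genes), 6 without ipsilateral replicate 2 (11.3%) and 22 without ipsilateral replicate 3 (13.3%). The median was lowest at 0.09 without ipsilateral replicate 1.

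Of the 24 members called in WT and the 12 called in Lama4-/- hemispheres 10 were called in both, which is 41.7% of the first and 83.3% of the second list. Among these were Rps27l, Rplp0, Rps2, Rps12, Rps18, Rpl7l1, Rpl23 and Rpl28. The remaining calls were Rpl22 and Rps6 in Lama4-/- and 14 members in WT hemispheres. With the pool as a block Rpl22 and Rps6 were called in both genotypes, as were Rpl18 and Rps19, so that their calls in 1 genotype alone depended on the fit. The difference of the stroke change between the genotypes did not pass the test for any member: edgeR called 0 of 81 members and 0 of 15351 genes, and 0 members but 244 genes (1.59%) had an unadjusted p under 0.05. DESeq2 and limma voom also called 0 members. The difference, Lama4-/- minus WT, was above 0 for 5 members against 46.7% of all genes, with a median of -0.10 against -0.01. The median was 0.01 without Lama4-/- contralateral replicate 2 and -0.04 without WT contralateral replicate 1. The smallest p was that of Rps15, with a difference of -0.18 ± 0.13. For Rps27l the difference was 0.06 ± 0.15 with a 95% interval from -0.27 to 0.40, and for Rplp0 -0.06 ± 0.15 with an interval from -0.38 to 0.26.

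**Figure D4:**
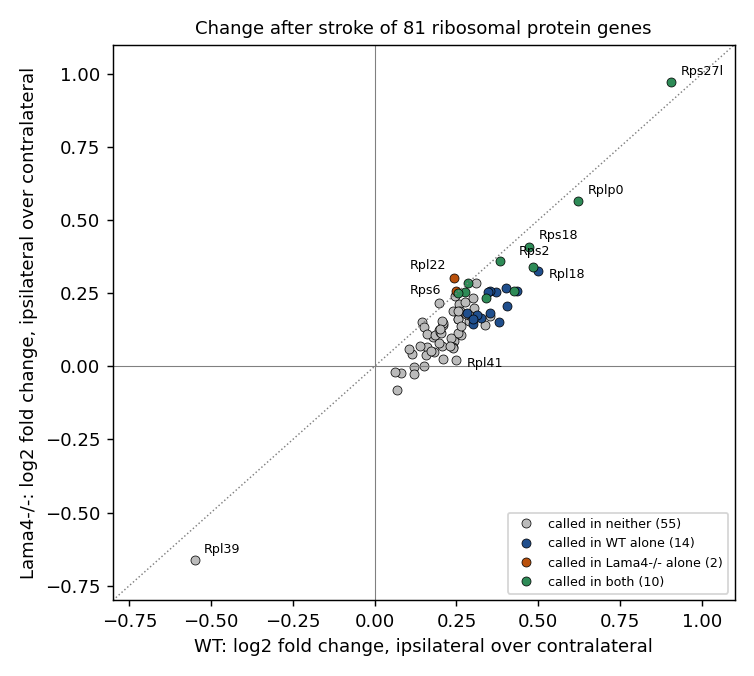
Log2 fold change after stroke (ipsilateral over contralateral) of each of the 81 ribosomal protein genes in WT (horizontal axis) and Lama4-/- mice (vertical axis), coloured by the edgeR call at an adjusted p under 0.05; the dotted line marks equal change. Rps27l (0.91 and 0.97) and Rplp0 (0.62 and 0.57) lie apart at the upper right, Rpl39 (not called) at the lower left, and most other members below the dotted line.

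In contralateral hemispheres, away from the stroke, the ribosomal protein genes of Lama4-/- mice had mostly higher estimates than those of WT mice, but 0 members were called by edgeR. Of all 14958 genes tested 0 were called higher and 2, or 0.0134%, lower. The log2 fold change, Lama4-/- over WT, was above 0 for 80 of 81 members against 51.7% of all genes, and its median was 0.18 against 0.01. An unadjusted p under 0.05 was found for 17 members against 9.51% of all genes, and the 3 Lama4-/- libraries lay above the 3 WT libraries for 27 members against 10.2%. DESeq2 and limma voom also called 0. Rpl28 (0.28 ± 0.09), Rps19 (0.27 ± 0.10) and Rplp1 (0.27 ± 0.10) had the smallest p, each with an edgeR adjusted p = 0.510. Rpl41, the shortest ribosomal protein, had the highest estimate of 0.36 ± 0.13 (edgeR adjusted p = 0.510). It was at 65.2, 83.9 and 82.9 CPM in WT and 90.5, 120.4 and 90.8 CPM in Lama4-/- contralateral libraries, so the groups did not overlap but 1 library on each side stood far out. Those were WT replicate 1 and Lama4-/- replicate 2, the libraries that stood apart for most members: the median was 0.12 without the first and 0.08 without the second, and 0.24 at most without another.

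In ipsilateral hemispheres 0 members were called by edgeR, DESeq2 or limma voom, and of all 15208 genes 1 was called, lower (0.00658%). The log2 fold change was above 0 for 77 members against 49.9% of all genes, with a median of 0.10 against 0.00, and 3 members had an unadjusted p under 0.05, against 3.49% of all genes. The groups did not overlap for 8 members against 5.50%. Rpl23 and Rpl37a were among those with the smallest p, with estimates of 0.19 ± 0.08 and 0.14 ± 0.07 (edgeR adjusted p = 0.989 for each). Leaving out replicate 1 of Lama4-/- mice gave a median of 0.04 and leaving out replicate 1 of WT mice 0.05. The authors' deposited tables of the same comparisons, which share these libraries, hold all 81 members. In the authors' deposited table of contralateral hemispheres 79 had a log2 fold change above 0, 30 had a p under 0.05 (9.49% of its genes did) and 0 an adjusted p under 0.05, the lowest being 0.267. In the authors' deposited table of ipsilateral hemispheres 78 were above 0, 1 had a p under 0.05 (3.11% of its genes did) and 0 an adjusted p under 0.05.

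**Figure D5:**
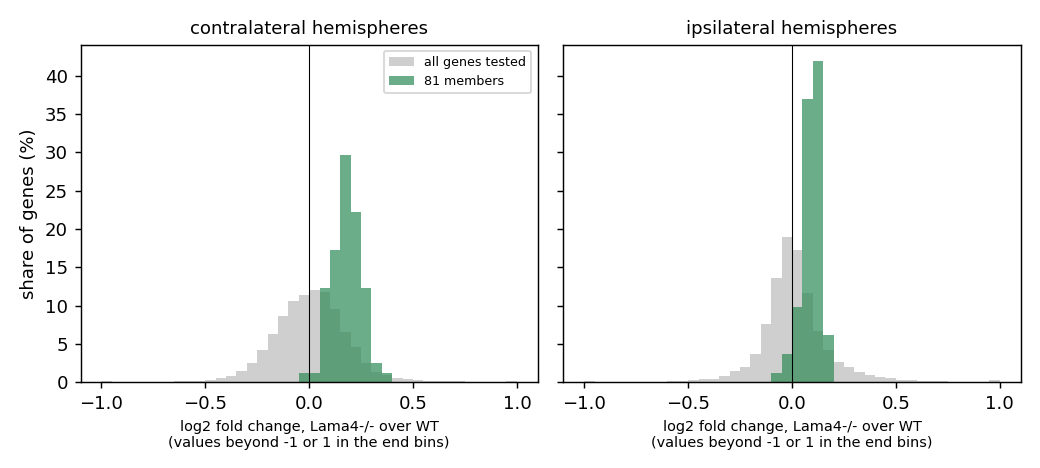
Distribution of the log2 fold change of Lama4-/- over WT in contralateral (left) and ipsilateral hemispheres (right), as a share (%) of the 81 ribosomal protein genes (green) and of all genes tested (grey) per bin. The members lie to the right of 0 with medians of 0.18 and 0.10, and 0 of them were called in either hemisphere.

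Start sites were read from RefSeq promoters of build GRCm38.p6, which hold 60 of the 81 members. A TOP-like start was taken as a C followed by at least 4 bases that are each C or T, on the gene's strand. It began exactly at an annotated start in 13 members (21.7%) and in 3.01% of 27025 genes of the table, and within 5 bases of one in 29 members (48.3%) and 21.2% of genes. Of the 22 members in the table that were called after stroke in either genotype 13 (59.1%) had such a start within 5 bases, and of the other 38 members 16 (42.1%). Annotated starts can lie some bases off the true ones, so no match says only that the letters do not open within 5 bases of the annotated start. The starts of some members called in both genotypes are given to show how the tract looks. It was found in Rps18, Rpl28, Rps15a and Rps2 (capitals) and not found within 5 bases in Rplp0 and Rps12. Rpl23 and Rpl7l1, also called in both genotypes, had no such start within 5 bases and are not shown. Each line holds 30 bases before the annotated start and 15 from it on, so that the start is base 31, on the gene's strand.
Rps18, chr17:33955651-33955695, minus strand: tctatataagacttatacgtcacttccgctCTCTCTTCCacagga
Rpl28, chr7:4792935-4792979, plus strand: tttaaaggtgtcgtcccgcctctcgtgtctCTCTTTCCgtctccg
Rps15a, chr7:118116133-118116177, minus strand: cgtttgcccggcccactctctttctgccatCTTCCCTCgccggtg
Rps2, chr17:24720033-24720077, plus strand: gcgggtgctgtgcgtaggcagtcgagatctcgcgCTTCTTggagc
Rplp0, chr5:115559437-115559481, plus strand: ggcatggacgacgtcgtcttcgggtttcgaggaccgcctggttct
Rps12, chr10:23787195-23787239, minus strand: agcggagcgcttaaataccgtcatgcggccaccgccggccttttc
In the first 3 the marked run is counted from the annotated start, although C or T also stand directly before it. In Rps2 the run opens 4 bases after the annotated start. The Rps12 line ends in a run that meets the definition but opens farther from the annotated start. The mRNA levels given here do not show how much of any mRNA was translated.

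Other genes of translation were read from lists of known genes in the same fits, in which 9.91% of all genes were called higher and 5.47% lower in WT, and 12.8% and 10.5% in Lama4-/- hemispheres. Of 48 genes of ribosome biogenesis, the making and assembly of ribosomal subunits in the nucleolus, 21 rose in WT (43.8%) and 22 in Lama4-/- hemispheres (45.8%), 0 fell, and the median log2 fold change was 0.21 in both. Of this list Myc, a transcription factor that drives such genes, rose by 1.27 ± 0.20 and 1.44 ± 0.20 (edgeR adjusted p = 0.00111 and 0.000296), and Nop58, a core protein of the particles that methylate ribosomal RNA, by 0.70 ± 0.09 and 0.82 ± 0.09. Fbl, the methyltransferase of those particles, rose by 0.58 ± 0.10 and 0.60 ± 0.10, and the nucleolar protein Gnl3 by 0.52 ± 0.08 and 0.48 ± 0.08. Of 37 initiation factors 11 rose (29.7%) and 1 fell in WT, and 12 rose (32.4%) and 0 fell in Lama4-/- hemispheres. Eif2s2, a subunit of the factor that brings initiator tRNA, rose by 0.58 ± 0.10 in each. Of 9 elongation factors 1 rose and 1 fell in WT, and 0 rose and 2 fell in Lama4-/- hemispheres.

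Of 4 ribosomal genes listed outside the name rule 2 rose in each genotype. Rpsa rose by 0.38 ± 0.09 and 0.35 ± 0.09 and Rack1 by 0.38 ± 0.09 and 0.37 ± 0.09, while Fau, whose protein is made as a fusion with a ubiquitin-like sequence, was not called. Of 15 other mRNAs known to carry a TOP tract 5 rose in WT (33.3%, against 9.91% of all genes) and 4 in Lama4-/- hemispheres (26.7%, against 12.8%). Among these were Vim, also a marker of reactive astrocytes, at 1.93 ± 0.20 and 2.06 ± 0.20, and Tpt1 at 0.41 ± 0.07 and 0.37 ± 0.07. Of 23 genes that control translation 5 rose and 1 fell in WT, and 6 rose and 3 fell in Lama4-/- hemispheres. Eif4ebp1, a repressor of cap-dependent initiation that mTOR inactivates, rose by 1.71 ± 0.16 and 1.53 ± 0.15, and Ppp1r15a, which ends the block of initiation after stress, by 0.87 ± 0.14 and 0.93 ± 0.14. Sesn2, an inhibitor of mTOR that p53 and stress induce, rose by 1.23 ± 0.18 and 1.03 ± 0.18.

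Of 77 genes of the mitochondrial ribosome 2 rose in WT (2.6%, against 9.91% of all genes) and 1 in Lama4-/- hemispheres (1.3%, against 12.8%), with medians of 0.05 and -0.04. Of those Mrps6 (0.93 ± 0.11 and 1.06 ± 0.11) shares its locus with the transporter gene Slc5a3, so its counts are uncertain. Of 46 nuclear subunits of the respiratory chain tested 0 rose, and 0 fell in WT but 11 in Lama4-/- hemispheres, where 10.5% of all genes fell, with medians of -0.07 and -0.23. These genes also had high values in the library that stood apart. Their levels summed to 5536 CPM in Lama4-/- contralateral replicate 2 and to 3803 to 4582 CPM in the other 5 contralateral libraries, and all 46 lay above 0 in the comparison of genotypes in contralateral hemispheres. In the same library the 5 neuron markers summed to 4492 CPM against 4904 to 5449 CPM in the other contralateral libraries, and the 5 choroid plexus markers to 830 CPM against 494 to 629 CPM. WT contralateral replicate 1, with the lowest ribosomal share, had the highest sum of neuron markers (5449 CPM) and the lowest sum of respiratory chain subunits (3803 CPM) of the 6 contralateral libraries. The part of these genes and cells in the ribosomal share of either library was not tested.

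Markers of some cell types moved with the stroke change, and those of others less so. In the fits used, 9.91% of all genes were called higher and 5.47% lower in WT, and 12.8% and 10.5% in Lama4-/- hemispheres. All 5 markers of striatal neurons fell in both genotypes, with medians of -0.99 and -1.20, and their sum was 416 to 563 CPM in contralateral and 201 to 295 CPM in ipsilateral libraries. Of the 5 general neuron markers 3 fell in WT and 2 in Lama4-/- hemispheres, with medians of -0.28 and -0.19, and 0 rose. Of 5 oligodendrocyte markers 1 rose in each genotype and 0 fell, and of 5 choroid plexus markers 0 were called. Of 6 monocyte and macrophage markers 4 rose in WT and 5 in Lama4-/- hemispheres, with sums of 20.5 to 25.2 CPM contralaterally and 70.6 to 168 CPM ipsilaterally. The sums were 2.27 to 3.64 and 3.72 to 20.3 CPM for 5 neutrophil markers, of which 0 rose in WT and 4 in Lama4-/- hemispheres. All 5 had estimates above 0 in WT too, and the difference between the genotypes was called for 0 of them. Their sums were 13.1, 20.3 and 4.305 CPM in Lama4-/- ipsilateral replicates 1 to 3, against 3.72 to 5.44 CPM in WT ipsilateral libraries. For 4 lymphocyte markers the sums were 0.218 to 0.533 and 0.248 to 0.593 CPM. Astrocyte markers summed to 1168 to 1329 CPM contralaterally and 1747 to 2331 CPM ipsilaterally, but they went both ways. Of the 5 markers 2 rose and 2 fell in WT, and 2 rose and 1 fell in Lama4-/- hemispheres. Gfap, which carried the sum, rose from a mean of 311 to 1251 CPM in WT. In Lama4-/- mice it rose from 318 to 1230 CPM, and Gja1 fell in both genotypes. Endothelial markers summed to 129 to 165 and 172 to 297 CPM, with 2 of 5 risen in WT and 3 of 5 in Lama4-/- hemispheres, and microglial ones to 254 to 344 and 381 to 424 CPM. Of the 6 microglial markers 2 rose in each genotype, C1qa among them, and P2ry12 fell in Lama4-/- hemispheres (-1.06 ± 0.28, edgeR adjusted p = 0.0164) and was not called in WT (-0.88 ± 0.27, adjusted p = 0.0518). The sum of the 3 erythroid markers in the table was 2.56 to 5.17 and 3.34 to 5.598 CPM. The part of these cells in the rise of ribosomal protein genes was not tested.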

How the data were processed

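The authors deposited raw counts per gene for each library. Per the submitters' processing notes, build mm10 was used with STAR 2.6.0, featureCounts 1.6.4, DESeq2, bcl2fastq and FastQC 0.72. Gene annotation, strandedness and the treatment of reads matching several genes: not given in the sources used here. The authors' deposited log2 fold changes and Wald p-values (per the file headers) set Lama4-/- against WT within a hemisphere. There were 36 further columns per library, not used here.

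Members, gene lists and the rule for named genes were chosen with earlier results of these data known. Counts were tested in edgeR 4.0.16 (R 4.3.3; TMM, filterByExpr, robust quasi-likelihood F test, Benjamini-Hochberg over all genes, threshold 0.05), on all 12 libraries with 1 mean per group for stroke and its difference between genotypes, and on 6 libraries per hemisphere for genotype. The fits were tested on simulated data. Alternatives used DESeq2 1.42.0 and limma 3.58.1. CPM divides by total counts. Named were the stalk genes, paralog pairs, Rps6, Rpl13a, Rpl5, Rpl11, Rps3, Rps19, the 6 largest called changes per comparison (mean log CPM of at least 3) or, with under 3 calls, the 4 smallest p, the 5 highest and lowest members, and up to 4 genes per other list. Rpl9, Rps15a, Rps20 and Rps21 were named after their values were seen. A few genes that the rule would name are not reported here. Shared windows come from GENCODE M21 transcripts of the same build.

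Hemispheres with the same number were taken as paired by pool. The deviations of all 6 such pairs from their group means correlated across genes at r = 0.109 to 0.337. WT and Lama4-/- libraries of the same hemisphere and number, which hold different mice, correlated at r = -0.097 to 0.349. These values cannot tell shared mice from another factor that goes with the number, so the pairing is an assumption. No libraries of a group were duplicates (chi-square over degrees of freedom 9.19 to 32.0).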

Additional observations from a re-analysis of the deposited data

How the results depend on the processing

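Calls of members after stroke depended on the fit more than estimates did. Against 24 members called higher in WT hemispheres (9.91% of all genes), 47 were called with no scaling beyond library totals (14.1%), 49 with the replicate block (13.2%) and 45 with only the 6 WT libraries (11.3%), and 7 of the 14 members with under 25% of their windows shared. Against 12 in Lama4-/- hemispheres (12.8% of all genes) the counts were 29 (18.5%), 22 (16.2%), 7 (10.3%) and 4. Leaving out 1 library at a time gave 9 to 44 (6.27% to 10.6% of all genes) and 3 to 40 (9.10% to 13.3%). Low-shared members were an alternative added after seeing the data, and their lower counts follow from fewer members. No scaling raised all genes by less than 0.1 (log2). Between genotypes the replicate block called 2 contralateral members (Rpl41 and Rps16, with 0.12% of all genes) and 0 others. WT and Lama4-/- pools hold different mice, so numbers do not pair them (r = -0.097 to 0.349 for the same number). DESeq2 called 34 and 16 (10.9% and 14.2% of all genes) and limma voom 23 and 13 (9.56% and 12.7%) after stroke; no fit called a member lower. Of 25 stroke calls of named members 10 held in all alternatives run. The causes were not tested. Low counts limit Rpl39 and Rpl3l, and shared windows limit most members.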
